A study of Mus musculus with 13 samples.

Results

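The normal lung of the mouse was described from 6 of the 13 RNA-seq libraries of a study of lungs and mammary tumors. All 6 came from female FVB mice aged 10 weeks that carried no tumor, and they were chosen by their labels alone. The 6 libraries belong to 4 mice, numbered 6886, 6887, 6888 and 6893. Mice 6886 and 6888 each gave 1 library in preparation batch 1 and 1 in batch 2, and mice 6887 and 6893 gave 1 library each, in batch 2. The labels give both libraries of such a mouse the same number and different batches, and the batch 2 library is called the repeat here. Whether a repeat began from the same RNA extract or from another piece of the same lung is not given in the sources used here, nor is any handling of the normal mice. Other groups serve only for side-by-side values: 4 lungs of mice bearing a tumor of the mouse mammary line Met1 (250000 cells injected at 8 weeks of age, tissue taken 2 weeks later) and 3 of those tumors.

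The lung exchanges gas across a thin wall of flat alveolar type 1 cells and capillary endothelium. Alveolar type 2 cells secrete surfactant, a mix of lipids and surfactant proteins that keeps the air spaces open, while club cells of the airways secrete small protective proteins and carry detoxifying enzymes. Resident alveolar macrophages clear particles and surfactant, and fibroblasts and smooth muscle lay down the collagen and elastic fibres of the wall. Whole lung RNA mixes all of these with blood, so fewer cells of a type and less RNA per cell cannot be told apart here.

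Depth was 9580462 to 12987199 estimated counts per normal lung library, within 8321037 to 13982903 over the series. The batches differed in RNA content: protein-coding genes took 68.2 and 69.6% of counts in the batch 1 libraries and 47.0 to 54.7% in those of batch 2. By TPM, a level per transcript length, protein-coding genes took only 4.14 to 6.50%, the rest being mostly short noncoding RNAs. Levels below are therefore rescaled TPM, in which protein-coding genes alone fill the whole sum of each library, and the 2 libraries of a repeated mouse were averaged, so that n counts mice. One library stood apart in content: the batch 2 library of mouse 6886 held heart muscle transcripts, described with the variable genes.

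A few secreted lung proteins, globins and housekeeping genes held much of the protein-coding transcriptome. The first gene by level took 4.49% ± 0.28 (SD, n = 4) of the protein-coding total, the first 10 took 21.1% ± 1.77 and the first 100 took 39.8% ± 2.89. Only 251.5 ± 59.2 genes (SD, n = 4) were needed to reach 50% of the total. These means join unlike preparations: single libraries needed 385 and 455 genes in batch 1 (mice 6886 and 6888) and 164 to 241 in batch 2. The first 10 genes took 18.6 and 15.2% in those batch 1 libraries and 20.5 to 27.3% in batch 2. At a level of at least 1 there were 13767 ± 51.9 genes, at least 10 there were 8722.5 ± 200.3, and at least 1000 there were 105.3 ± 4.99.

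By the mean over mice the most abundant gene was Scgb1a1 (chr19:9083636-9087958, GRCm38, minus strand), which encodes secretoglobin 1A1, the main secreted protein of club cells. Its rescaled TPM was 36223 and 39466 in the batch 1 libraries of mice 6886 and 6888, 45553 and 43006 in their batch 2 libraries, 40093 in mouse 6887 and 44642 in mouse 6893. Its level over the mice was 41715 ± 2009 (SD, n = 4), a coefficient of variation of 4.82%, and the lowest library was a batch 1 library. The tumors held 3.09 to 51.7. Cbr2, a carbonyl reductase of airway and alveolar epithelium, stood at 8397 ± 680 (SD, n = 4), with all 6 libraries between 7471 and 9339 and the batches overlapping. Fmo2, a flavin monooxygenase that oxidises foreign compounds and is typical of lung, ranged more widely, from 2130 in mouse 6887 to 6822 in the batch 1 library of mouse 6888.

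Surfactant genes came next among the epithelial transcripts. Sftpc (chr14:70520949-70524081, minus strand), which encodes surfactant protein C, a peptide made by type 2 cells alone, stood at 17851 and 16425 in batch 1 for mice 6886 and 6888, and at 24184 and 25442 in batch 2. Mice 6887 and 6893 were at 29491 and 27817. Both batch 1 libraries lay below all 4 batch 2 libraries, so the mean of 24815 ± 4486 (SD, n = 4) carries a spread between preparations. Sftpa1, surfactant protein A and a lectin of lung defence, did not behave so: its 6 values lay between 2487 and 3481, with a mean of 2919 ± 133 (SD, n = 4), and batch 1 was the higher one. Sftpb, needed to form surfactant films, stood at 2675 ± 141 (SD, n = 4). The tumors held at most 18.5 of Sftpc, 3.35 of Sftpa1 and 4.14 of Sftpb.

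The start region of Sftpa1 is shown as that of an abundant surfactant gene whose window holds a TATA box sequence: 120 bases before the RefSeq transcription start at chr14:41131668-41131787 (GRCm38.p6, plus strand, 5′ to 3′), with the TATAAA run in capitals, which begins 30 bases before the start.
Sftpa1: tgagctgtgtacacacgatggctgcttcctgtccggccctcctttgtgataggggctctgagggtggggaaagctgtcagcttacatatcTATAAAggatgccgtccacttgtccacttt
Among windows of 250 bases before the start, TATAAA stood on either strand in 2 of the 17 that matched the 25 most abundant genes (11.8%) and in 12.4% of all 32851 windows, close shares. Scgb1a1 and Sftpc were not among the matched windows.

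Blood gave the next group. The beta globin gene Hbb-bs had a rescaled TPM of 31178 and 17383 in batch 1 (mice 6886 and 6888), 64882 and 54801 in their batch 2 libraries, and 45573 and 35833 in mice 6887 and 6893. Its mean of 41382 ± 6339 (SD, n = 4) was within 1 SD of that of Scgb1a1, and it was the higher of the pair in mice 6886 and 6887. Each mouse that was prepared again held a higher level in batch 2, and the batches did not overlap. The alpha globins Hba-a2 and Hba-a1 followed at 34318 ± 7148 and 18406 ± 4084 (SD, n = 4). The 10 genes of a red cell list made up 9.68% ± 1.80 of the protein-coding total (SD, n = 4), and their summed level was 46543 to 156926 over the 6 libraries, against 943 to 4210 in the tumors.

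**Figure D1:**
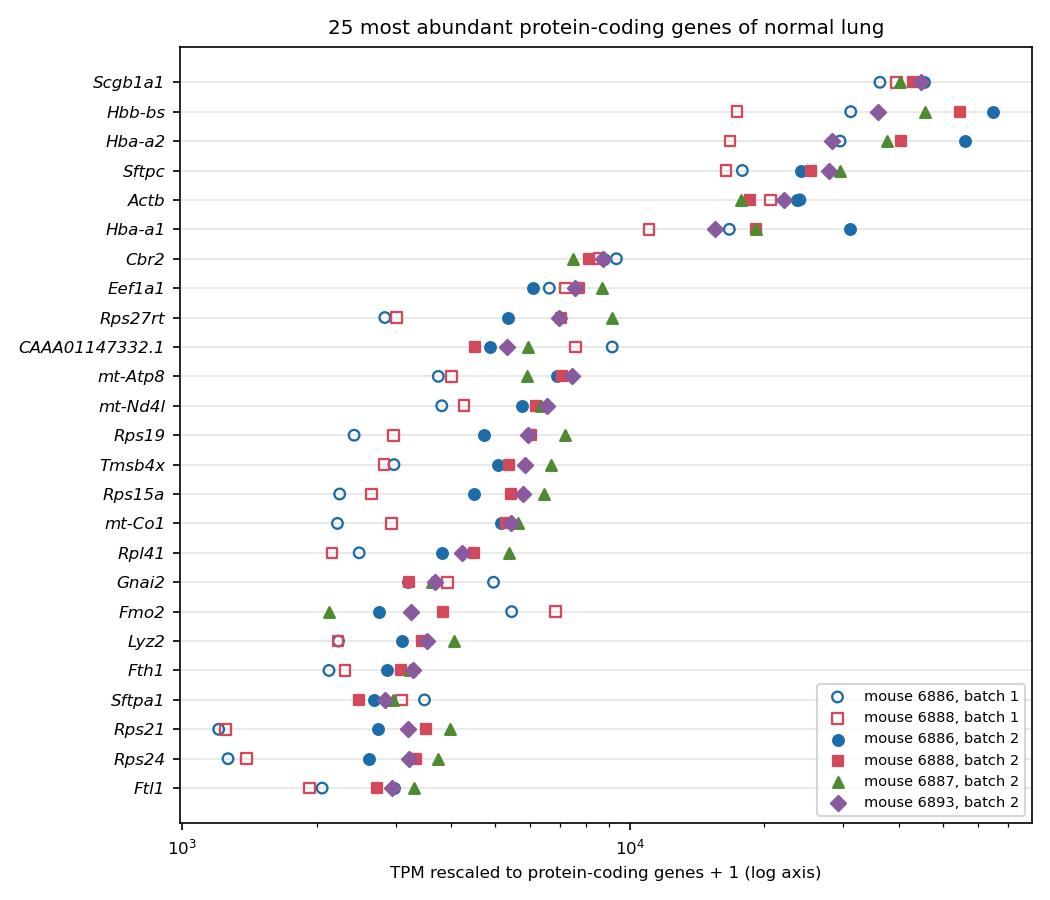
Level of the 25 most abundant protein-coding genes in each of the 6 normal lung libraries, as TPM rescaled to protein-coding genes plus 1 on a log axis, open symbols for batch 1 and filled for batch 2. Open symbols sit to the left for ribosomal, mitochondrial and globin genes (Rps21 at 1207 and 1251 against 2745 to 3977) and to the right for Fmo2, where 1 batch 1 library reached 6822.

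The rest of the 25 were genes that most cells use. Actb, cytoskeletal actin, stood at 20821 ± 2687 (SD, n = 4), and Eef1a1, a translation elongation factor, stood at 7504 ± 955. Ribosomal proteins took several places, led by Rps19 at 5295 ± 1589, and the ribosomal-like gene Rps27rt reached 6292 ± 2221. Mitochondrially encoded subunits were present: mt-Atp8 of ATP synthase at 6044 ± 956, mt-Nd4l of complex I at 5719 ± 852 and mt-Co1 of complex IV at 4718 ± 958. Tmsb4x, an actin-binding peptide, Lyz2, the lysozyme of macrophages and type 2 cells, and the ferritin chains Fth1 and Ftl1 stood at 5157 ± 1313, 3270 ± 641, 2926 ± 390 and 2771 ± 437. Gnai2, a G protein subunit, stood at 3737 ± 234. Rps27rt and CAAA01147332.1 (243 exonic bases, level 6071 ± 699) are uncertain, since ribosomal copies and a gene model on an unplaced scaffold can share reads with other loci, and so are the 2 alpha globin copies.

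Lists of cell type genes checked the label of the tissue. Club cell genes (11) made up 5.32% ± 0.266 of the protein-coding total, type 2 genes (12) 3.61% ± 0.515, type 1 genes (12) 0.647% ± 0.0773 and ciliated cell genes (12) 0.148% ± 0.0165 (all SD, n = 4). The summed level of type 2 genes was 26990 to 41560 over the 6 libraries and 763 to 949 in the tumors, and that of ciliated genes 1268 to 1867 against 17.5 to 23.1. Of the type 1 list, Cav1, the caveolin of membrane pits, which other cells also use, stood at 1613 ± 308. Ager, a surface receptor typical of type 1 cells, stood at 1521 ± 249. Inmt, a methyltransferase of lung fibroblasts, stood at 2033 ± 226, and Chil3, a chitinase-like protein secreted by alveolar macrophages, at 2467 ± 897. Markers of neighbouring organs were low: thymus genes summed to 13.6 to 16.7 over the libraries and basal or oesophageal epithelium genes to 0.436 to 18.4. The 9 mast cell and basophil genes summed to 178 to 411, nearly all of it Gata2 and Kit, which other cells also use, and the defining gene Fcer1a was at 0 in 5 of the 6 libraries. The 13 adipocyte and brown fat genes summed to 65.8 to 194, with 8 at a mean of at least 1 and Lep at 0 in all 6.

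Outside the protein-coding genes, Rn7s1, the RNA core of the particle that guides secreted proteins to the endoplasmic reticulum, accounted for 25.1 and 18.9% of all TPM in batch 1 (mice 6886 and 6888) and 36.5 to 43.8% in batch 2. Malat1, a nuclear long noncoding RNA, stood at a rescaled level of 3436 and 4190 in batch 1 and at 7424 to 8924 in batch 2. The processed pseudogenes Gm12895 and Gm12896 took 21.6% of TPM each in batch 1 and 8.48 to 10.3% each in batch 2. Their shares were nearly equal in every library (1.37455 and 1.37465% of counts in mouse 6887, for example), and the reads of these close copies are uncertain as to locus.

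To see which genes set the mice apart, the SD over the 4 mice of log2(rescaled TPM + 1) was taken for the 8814 protein-coding genes with a mean of at least 10. Its median was 0.214, and 0.184 with the batch 2 libraries alone (8622 genes). Genes with a mean of at least 1000 had a median SD of 0.257, against 0.217 for those from 10 to 20, but 0.179 against 0.194 in batch 2 alone. An SD over 1 was found for 32 of 2616 genes at a level of 10 to 20 and for 0 of the 311 genes at 300 to 1000 and 0 of the 103 above.

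Of the 25 genes with the largest SD, 18 had no official name and 18 had a mean of under 50 estimated counts. Gm11037, with 60 exonic bases, led with an SD of 3.55: it was at 0 in 4 libraries, and its 101.7 in mouse 6893 stood for 1.77 estimated counts. Gm14440, a zinc finger gene model with close copies, was covered well (425 counts on average) and split the libraries otherwise, at 231 and 252 in 6888 batch 1 and 6893 and at 1.89 to 4.35 in the other 4. Such values rest on very short or duplicated gene models. The ranking was therefore repeated, after the data were seen, over the 8416 genes with an official name and at least 50 counts on average, and 6 of the 25 genes remained.

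In that ranking Tnni3 and Myl7 came first. Both encode parts of the heart muscle sarcomere, cardiac troponin I and the atrial myosin light chain; in the mouse, heart muscle also sheathes the large pulmonary veins. Myl7 had a rescaled TPM of 316 in the batch 2 library of mouse 6886, but 1.55 in the batch 1 library of the same mouse. In the other 4 libraries it stood at 0, 9.57, 2.60 and 15.3. Tnni3 stood at 240 in that library, at 2.19 in batch 1 of the same mouse and at 0 to 6.68 elsewhere. Myh6, the cardiac myosin heavy chain, stood at 134 against 1.56 to 4.43, Myl4, another atrial light chain, at 179 against 4.94 to 8.87, and Tnnt2, cardiac troponin T, at 108 against 1.76 to 7.08. Leaving this 1 library aside, no normal lung library reached 16 for any of these 5 genes. The tumors held 33.8 to 65.0 of Tnnt2 and at most 5.59 of any of the others.

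The whole list of 20 heart muscle genes summed to 1315 in the batch 2 library of mouse 6886 and to 110 in its batch 1 library. The 4 libraries of the other 3 mice held 72.1 to 131. In that library 15 of the 20 genes reached 10, against 2 or 3 in each of the others. The natriuretic peptide gene Nppb was at 0 in all 6 libraries and Myl2, the ventricular light chain, was at 0.716 or below. Nppa, the atrial natriuretic peptide gene, was also low in the batch 2 library of mouse 6886, at 0.282, against 0 to 1.39 elsewhere. Myl3, a light chain of ventricle and slow muscle, was high in that library, at 20.0 against 0 to 0.609. Tumor-bearing lung 6879 of batch 1 held a sum of 1800, and the other 3 tumor-bearing lungs 79.6 to 156. Of protein-coding genes with an official name, 23 were at least 4-fold higher (rescaled TPM + 1, at least 50 counts) in the batch 2 library of mouse 6886 than in every other normal library, and 11 of them were on the heart list. Others among the 23 were the striated muscle genes Csrp3 (33.6) and Tcap (49.8), the muscle forms of respiratory chain subunits Cox6a2 (20.5) and Cox7a1 (103), and Scgb3a1, a secretoglobin of larger airways (68.2 against 1.63 to 5.39). The same count was 0 to 3 in each of the other 5 libraries. The part of tissue content in these differences was not tested.

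The start regions of 3 of these genes are shown as examples with and without a muscle motif that few of the group held. Each line gives 120 bases before the RefSeq start (GRCm38.p6, 5′ to 3′, all minus strand): Myl7 at chr11:5898783-5898902, Actc1 (cardiac actin) at chr2:114052876-114052995 and Tnni3 at chr7:4522529-4522648. Capitals mark a CArG box, the site bound by serum response factor, a regulator of muscle genes; both strands were searched, and a CArG box can itself contain TATAAA.
Myl7: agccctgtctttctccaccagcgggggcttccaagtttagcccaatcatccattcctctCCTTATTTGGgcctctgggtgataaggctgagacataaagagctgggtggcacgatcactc
Actc1: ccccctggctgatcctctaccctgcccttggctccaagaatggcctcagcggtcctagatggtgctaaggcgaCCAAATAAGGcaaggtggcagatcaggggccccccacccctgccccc
Tnni3: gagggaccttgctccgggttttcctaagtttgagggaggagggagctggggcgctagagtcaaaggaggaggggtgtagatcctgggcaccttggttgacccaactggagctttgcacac
A CArG box stood in 3 of the 19 matched heart gene windows of 250 bases (15.8%; Myl7, Actc1 and Myl3) and in 482 of all 32851 windows (1.47%). The Tnni3 window held none.

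**Figure D2:**
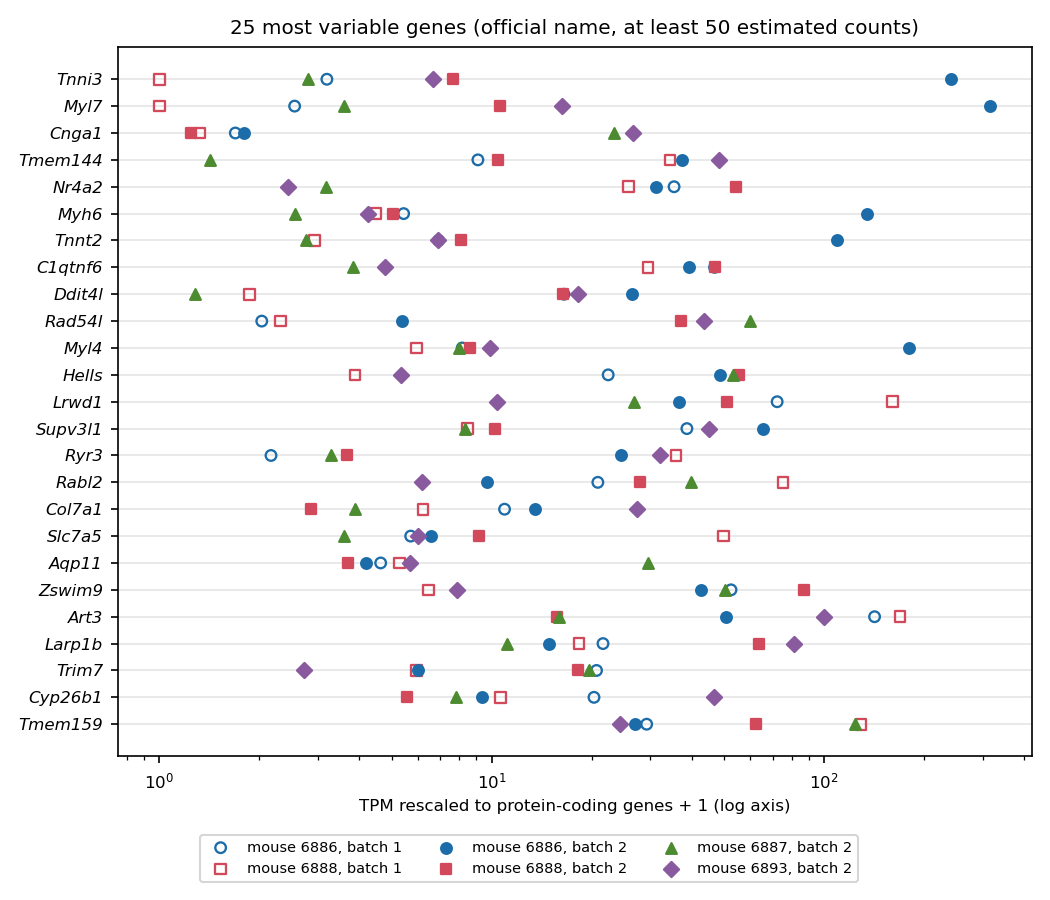
Level of the 25 most variable genes with an official name and at least 50 estimated counts in each normal lung library, as rescaled TPM plus 1 on a log axis. The filled circle of mouse 6886, batch 2, stands alone to the right for Tnni3, Myl7, Myh6, Tnnt2 and Myl4 (Myl7 at 316 against 15.3 or less), while for Nr4a2 and C1qtnf6 both libraries of mice 6886 and 6888 lie to the right of mice 6887 and 6893.

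Other genes in the ranking split the mice rather than the preparations. Nr4a2, an immediate early transcription factor of the nuclear receptor family, stood at 34.4 and 30.2 in the 2 libraries of mouse 6886 and at 24.8 and 53.5 in those of mouse 6888. Mice 6887 and 6893 held 2.18 and 1.44. C1qtnf6, a secreted protein with a C1q domain, showed the same split, with 28.5 to 46.1 in the 4 libraries of mice 6886 and 6888 against 2.83 and 3.77. Cnga1, a cyclic nucleotide-gated channel, ran the other way, at 0.249 to 0.794 against 22.4 and 25.7. The 2 repeated mice are also the 2 with batch 1 libraries, but their batch 2 libraries alone show the same split. Rad54l, a DNA repair helicase, instead followed both: it stood at 1.03 and 1.32 in batch 1, at 4.38 in mouse 6886 in batch 2 and at 36.1 to 59.1 in the other 3 batch 2 libraries. Slc7a5, an amino acid transporter, was high in 1 library alone, at 48.9 in mouse 6888 batch 1 against 2.58 to 8.13.

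In other mice the same genes varied too. Of the 25 genes, 23 could be ranked by their SD over the 3 tumor-bearing lungs of batch 1, and 17 of these lay in the highest 10% there. Tumor-bearing lung 6879, with its own heart transcripts, is among those 3 lungs. The sign of the difference between mice 6886 and 6888 was the same in both batches for 15 of the 25 genes, close to the 55.0% of the 8416 genes.

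Only a few differences between mice 6886 and 6888 were found again when both were prepared again. As a description over 8416 genes, the difference in batch 1 and that in batch 2 had a Pearson correlation of 0.07 and a Spearman correlation of 0.10. In batch 1, 196 genes differed over 2-fold between these mice and in batch 2 180 did. Of the 180, 87 had the same sign in batch 1, where 55.0% of all 8416 genes kept their sign. A difference over 2-fold in both batches with the same sign was found for 23 genes. Rhod, a small GTPase of endosomes, was one: both libraries of mouse 6886 held 41.4 and 33.1, and the other 4 libraries 5.97 to 7.66. Stn1, a telomere maintenance protein, stood at 59.1 and 50.0 in mouse 6886 against 14.5 to 23.3. Acp2, lysosomal acid phosphatase, was low in mouse 6886, at 21.6 and 22.4 against 48.8 to 59.5, and Narfl, an iron-sulfur assembly factor, stood at 11.4 and 10.0 against 28.2 to 40.3. In these 4 genes both preparations of mouse 6886 lay outside the range of the other 4 libraries. Cd4, the T helper co-receptor, differed between the repeated mice in both batches (16.3 and 21.1 against 6.15 and 9.18), and mouse 6887 was higher still at 37.6. The heart muscle genes Myl7, Tnnt2 and Tnni3 were also among the 23, with batch 1 values of at most 5.92.

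The 15 genes of least SD had SDs of 0.00479 to 0.0203, with levels near the middle of the range. Nudt16l1, a relative of nucleotide hydrolases, had mouse means near 21.4, yet its 6 libraries ran from 17.2 to 25.8. Hdac7, a histone deacetylase of endothelium and lymphocytes, stood at 89.4 and 102 in batch 1, at 69.9 and 58.3 in batch 2 of the same mice, and at 80.6 and 79.3 in mice 6887 and 6893. Their small SDs are thus those of means over unlike repeat libraries. With the batch 2 libraries alone the 15 genes had SDs of 0.0411 to 0.330, and none of them was among the 15 least variable. Pccb, a subunit of propionyl-CoA carboxylase in the mitochondrion, kept the smallest of these batch 2 SDs, with all 6 libraries between 30.01 and 32.6. Cryzl2 lay between 13.998 and 15.7.

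Genes often used as references differed in steadiness. Gusb, beta-glucuronidase of the lysosome, was the steadiest over the 6 libraries, from 26.1 to 32.0, a largest-to-smallest ratio of 1.23. Actb had a ratio of 1.35, and Pgk1, of glycolysis, had 1.37. Rpl13a, a ribosomal protein, ran from 703 to 2181, a ratio of 3.10, and Rps18 had 3.01. Tfrc, the transferrin receptor, had an SD over mice of 0.082, at the 7.15th percentile of all genes, but its 6 libraries spanned 24.99 to 75.1, a ratio of 3.004. Gapdh, of glycolysis, stood at 240 ± 33.6 (SD, n = 4) with a ratio of 1.66.

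A second preparation of a lung moved the levels more than a change of mouse did. Between the 2 libraries of mouse 6886 the median absolute log2 difference over the 8814 genes was 0.40, and 0.46 for mouse 6888. Between different mice of the same batch it was 0.18 to 0.22. After centring each pair on its median, the values were 0.29 and 0.33 against 0.17 to 0.20. Over 2-fold differences made up 7.64 and 9.73% of genes between preparations and 2.53 to 3.11% between mice. These pairs share libraries, and the difference between the 2 kinds of pair was not tested.

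The preparation differences of the 2 mice resembled each other. Over 8416 genes their Pearson correlation was 0.54 and 78.4% had the same sign, as a description across genes. Both medians over these genes lay below 0 (−0.31 in mouse 6886 and −0.37 in mouse 6888). The share with the same sign includes that common shift. Over 2-fold differences numbered 603 in mouse 6886 and 772 in mouse 6888, and 265 genes had one in both with the same sign.

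**Figure D3:**
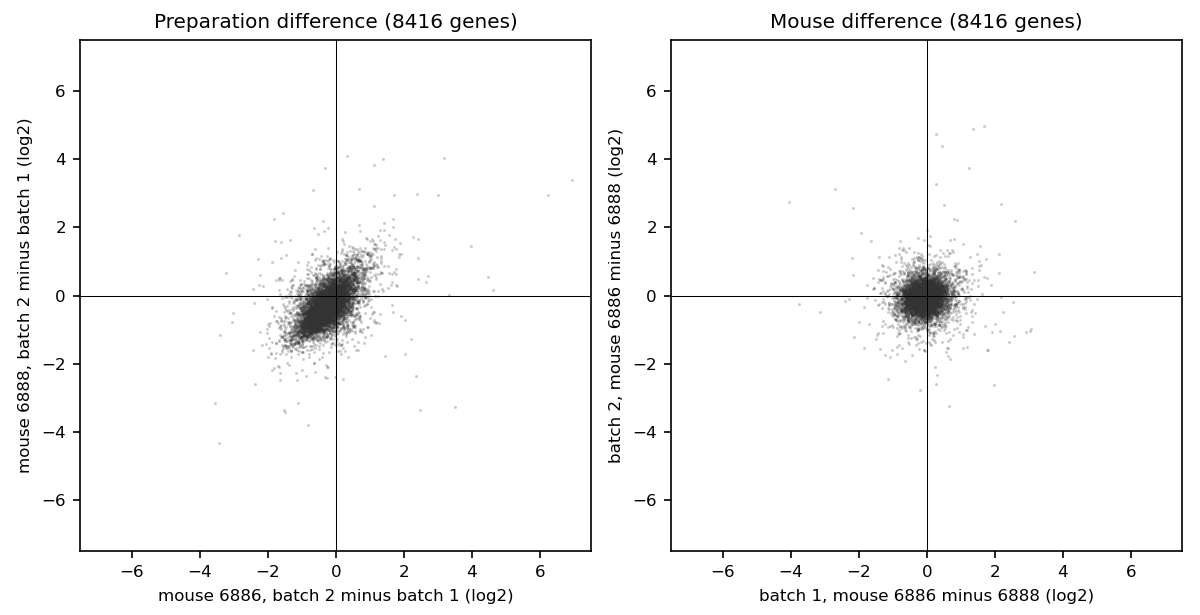
Each point is 1 of 8416 genes, on axes of log2 difference in rescaled TPM + 1. Left, batch 2 minus batch 1 in mouse 6886 against the same in mouse 6888 (Pearson correlation 0.54); right, mouse 6886 minus mouse 6888 in batch 1 against batch 2 (0.07), a round cloud without a diagonal.

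To count the genes that changed with preparation, the batch 2 and batch 1 libraries of mice 6886 and 6888 were compared with edgeR's quasi-likelihood test, with the other 2 mice adding to the estimate of spread. At a Benjamini-Hochberg threshold of 0.05, 1133 of 17858 genes (6.34%) changed, 541 higher (3.03%) and 592 lower (3.32%) in batch 2. Among 14170 protein-coding genes 859 changed (6.06%), 288 higher (2.03%) and 571 lower (4.03%). With the mouse as a block the count was 694 (3.89%), with 335 higher (1.88%) and 359 lower (2.01%), and 596 were shared. DESeq2 called 1963 of 14049 genes, 743 higher (5.29%) and 1220 lower (8.68%). The split into higher and lower differed between settings: protein-coding genes fitted alone gave 604 (4.25%), with 301 higher (2.12%) and 303 lower (2.13%), and limma on rescaled TPM gave 193 higher and 926 lower. On rescaled TPM the median log2 difference of the 13864 protein-coding genes tested was −0.26, against −0.08 for the 14170 in the count fit. DESeq2's size factors in edgeR, a change of scaling alone, gave 538 higher and 670 lower. The count rests on all 4 repeat libraries: it was 9 without 6886 batch 2, 1 without 6888 batch 2, 7 without 6886 batch 1 and 3 without 6888 batch 1, fits in which 1 arm holds a lone library assumed to vary like the others. It was 601 without mouse 6887 and 610 without mouse 6893.

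Mice 6887 and 6893 took no part in the contrast itself. By CPM (counts scaled to library size), both lay beyond the 2 batch 1 libraries, on the same side as the repeats, for 536 of the 541 genes called higher and 584 of the 592 called lower. Of all 17858 genes tested the same held for 10040 (56.2%), and of the 16725 not called for 8920 (53.3%). Since the called genes were picked against those same batch 1 libraries, these counts are a description. Neither mouse did so for 5 called genes. Cr2, the complement receptor of B cells and the largest named fall, was one of these: it stood at 15.8 and 19.0 CPM in batch 1, at 1.09 and 0.550 CPM in batch 2 of the same mice, and at 17.6 and 18.5 CPM in mice 6887 and 6893. Its log2 difference was −4.36 ± 0.31 (SE; edgeR adjusted p = 0.0139). Gmppb, of GDP-mannose synthesis, followed the same pattern, with a rescaled TPM of 49.0 and 60.5, then 8.69 and 9.18, with 51.9 and 103 in the other 2 mice. The other 3 were Phf24, Zfp462 and Gtf3c2.

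Genes of protein synthesis and respiration were higher in batch 2. Over all genes tested 3.03% rose, and of the 2832 protein-coding genes of highest level 118 did. Of 47 ribosomal protein genes 33 rose and none fell, with a median log2 difference of 1.00, against 0.03 for all genes tested. Of the 13 protein genes of the mitochondrial genome 12 rose (median 1.06), and of 37 nuclear genes of the respiratory chain 16 rose (median 0.79). Rps21, of the small ribosomal subunit, stood at 1207 and 1251 in batch 1, at 2745 and 3514 in the repeats and at 3977 and 3191 in the other 2 mice, with a log2 difference of 1.55 ± 0.18 (SE; edgeR adjusted p = 0.0176). No batch 2 library overlapped batch 1. mt-Co1 stood at 2224 and 2936, then at 5169 and 5286, with 5625 and 5439 in the other mice (log2 1.23 ± 0.15, SE; adjusted p = 0.0177). Atp5k, a small subunit of ATP synthase, had a log2 difference of 1.85 ± 0.23, while Atp5b, its large catalytic subunit, had −0.22 ± 0.13 and did not pass (adjusted p = 0.315). Rpl22l1, a ribosomal protein paralog, rose by 2.48 ± 0.29 on the log2 scale. mt-Co2 passed too (2.30 ± 0.37), but mouse 6887 held 47.9, below both batch 1 libraries at 54.0 and 62.4.

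Alveolar macrophage genes rose too, 9 of 15, with none lower and a median log2 difference of 0.94, where 3.03% of all genes tested rose. Chil3 stood at 704 and 1212 in batch 1, 1749 and 3729 in batch 2 of the same mice and 3319 and 2852 in the other 2 (log2 1.72 ± 0.37, SE; edgeR adjusted p = 0.0454). Ear2 and Ear1, ribonucleases of these macrophages, stood at 42.6 and 69.5 and at 36.4 and 48.5 in batch 1, and at 98.6 or more in every batch 2 library. Siglecf, their surface lectin, Atp6v0d2, a proton pump subunit, and the myeloid lectin Clec4n rose as well, by 1.85 ± 0.40, 2.02 ± 0.18 and 2.25 ± 0.23. Marco, a scavenger receptor, had 0.480 to 7.56 over the libraries and did not pass (adjusted p = 0.711), nor did Fabp5 or Ctsd. Of 12 neutrophil genes tested, S100a8 (log2 3.29 ± 0.63) and Wfdc21 (1.93 ± 0.36) rose. Of 10 red cell genes only Hbb-bs passed (1.5 ± 0.31, SE; adjusted p = 0.0422), and 4 passed with the mouse as a block. The other globins, Hbb-bt, Hba-a2 and Hba-a1, had log2 differences of 1.43, 1.26 and 1.06.

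Genes of matrix and vessel were lower in batch 2. Over all genes tested 3.32% fell, and of the 2832 protein-coding genes of highest level 379 did. Collagen genes fell in 14 of 19 cases, with none higher and a median log2 difference of −1.21. Col4a1, of the basement membrane, stood at 1066 and 1008 in batch 1 and at 285 to 357 in all 4 batch 2 libraries, a log2 difference of −1.60 ± 0.13 (SE; edgeR adjusted p = 0.0146). The batches lay far apart. Col4a3, of the alveolar basement membrane, stood at 82.9 and 119 against 24.95 to 27.9. Col3a1, a fibrillar collagen, differed between the batch 1 libraries themselves (1110 and 526) and did not pass (adjusted p = 0.0785). Elastic fibre genes fell in 7 of 14, among them Ltbp4, a binder of latent TGF-beta, from 536 and 521 to 143 to 175. Fibroblast genes fell in 7 of 18 and smooth muscle and pericyte genes in 7 of 14, such as Pdgfrb, the pericyte growth factor receptor (51.6 and 59.4 against 15.8 to 20.1). Several collagens stand on the fibroblast list as well, and Mfap4 on both the fibroblast and elastic fibre lists.

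Blood endothelial genes fell in 9 of 24 (median −0.71), among them Plvap, of endothelial pores, from 512 and 626 to 235 to 295 (log2 −1.04 ± 0.13, SE; edgeR adjusted p = 0.0177), and the apelin receptor Aplnr from 151 and 139 to 31.5 to 86.5. Egfl7, a secreted endothelial protein, had a log2 difference of −0.03 ± 0.14 and Gpihbp1, the capillary anchor of lipoprotein lipase, 0.06 ± 0.17. Neither passed. Type 1 cell genes fell in 6 of 12 (median −0.60; 3 of 12 with the mouse as a block), including Ager (2385 and 2215 against 1112 to 1358) and Cav1, whereas Hopx, a cofactor found in the same cells, had 0.03 ± 0.13. Of the 12 type 2 genes Sftpc and Lyz2 rose, by 0.74 ± 0.14 and 0.76 ± 0.15, and the median was 0.03. The type 2 median changed sign with the setting, from −0.19 to 0.15. Beside these list counts, 3.03% of all genes tested rose and 3.32% fell.

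Lists without a clear shift are part of the account. Immediate early (22 genes), circadian clock (20), glucocorticoid response (15), MHC class I (13), MHC class II (10), cell cycle (20), lipid (17), B and plasma cell (13) and NK cell (10) lists had no gene past the threshold, with list medians between −0.31 and 0.25 (edgeR). These lists hold 140 entries, with Dusp1 and Per1 counted again where lists overlap. Of the 140, 26 had an unadjusted p under 0.05 in edgeR, DESeq2 called 13 and limma voom 1. The shares over all genes were larger than those of the 9 lists together: 5018 of 17858 had an unadjusted p under 0.05 in edgeR. DESeq2 called 1963 of 14049 and limma voom 1029 of 17858. Single lists differed: the lipid list had 7 of 17 at an unadjusted p under 0.05 in edgeR, the clock list 6 of 20 and the others 0 to 4. DESeq2 called 5 lipid, 3 clock, 3 immediate early and 2 MHC class I genes, and 0 in the others. Of the 20 reference genes Rpl13a, Rps18 and Ppia rose and Polr2a fell. The heart list also had none past the threshold among 14 tested, with a median of 4.04, and 1 of the 2 repeat libraries held the transcripts. Of these 14, 13 had an unadjusted p under 0.05 in edgeR, DESeq2 called 8, limma voom 0 and the mouse block 5. Mesothelial genes, none of 10 past the threshold (3 at an unadjusted p under 0.05, 2 by DESeq2), had a median of −1.28, and their sum was 432 in mouse 6886 batch 1 against 214 to 273 in the other 5 libraries.

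**Figure D4:**
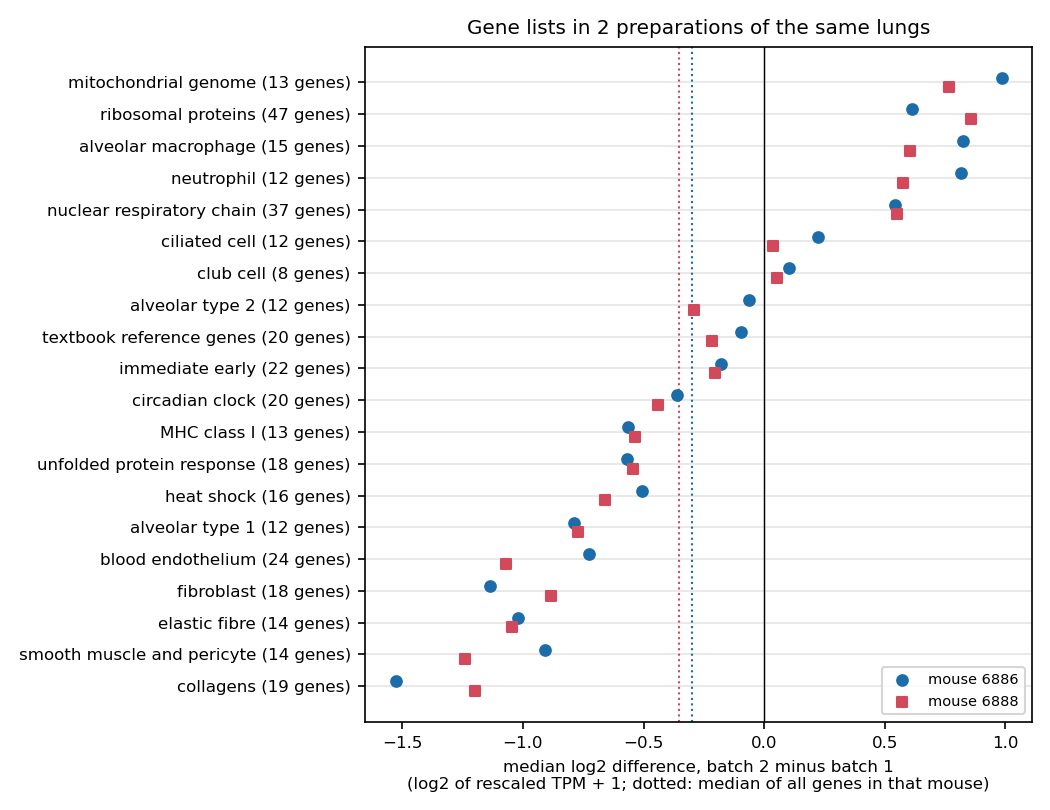
Median log2 difference, batch 2 minus batch 1, of 20 gene lists in mouse 6886 (circles) and mouse 6888 (squares), on log2 of rescaled TPM + 1, where dotted lines mark the median of all genes in each mouse (−0.30 and −0.35). Ribosomal, mitochondrial and alveolar macrophage genes lie above 0 in both mice, and collagens lie below −1 in both.

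The largest single changes in protein-coding genes, beside those above, were spread over functions. Rccd1, a chromatin-binding protein, rose by 3.29 ± 0.57 on the log2 scale, but mouse 6893 held 3.12, within the batch 1 values of 2.69 and 4.13. Fras1, of the epithelial basement membrane, stood at 30.6 and 10.1, then at 0.949 and 1.19, with 7.75 and 8.38 in the other mice (log2 −4.07 ± 0.55, SE; edgeR adjusted p = 0.0196). Abcb1a, a drug efflux pump of endothelium, stood at 83.1 and 68.5 against 6.12 to 26.3. Alpl, tissue alkaline phosphatase, Nrg1, a ligand of ERBB receptors, and Mn1, a transcriptional regulator, fell by 2.49, 2.08 and 2.05 on the log2 scale. For Mn1 the 2 batch 1 values, 12.9 and 12.003, were close, and the 4 batch 2 values ran from 2.55 to 4.54.

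Among noncoding RNAs past the threshold more rose than fell. Of 76 genes of the class misc_RNA 38 rose and 1 fell (median log2 1.80), and of 91 snoRNA genes 20 rose and 1 fell (0.97). Of 513 lincRNA genes 25 rose and 3 fell (0.81). Over all 17858 genes tested 3.03% rose and 3.32% fell. The share of lincRNA genes that rose was not far above the first of these, and the share that fell was below the second. Rn7sk, which restrains a transcription elongation factor, rose by 1.68 ± 0.19 (SE; edgeR adjusted p = 0.0176) and took 2.14 to 2.25% of TPM in batch 1 and 4.49 to 4.997% in batch 2. Rmrp and Rpph1, the RNAs of the ribonucleases MRP and P, rose by 1.49 ± 0.20 and 1.15 ± 0.18. The small nucleolar RNAs Snora73a and Snora73b rose by 1.97 ± 0.22 and 1.83 ± 0.22, and Malat1 by 1.29 ± 0.14. Gm26917, a long noncoding RNA gene model, went the other way: it stood at 37182 and 34999 CPM in batch 1 and at 7024 to 8253 in batch 2 (log2 −2.24 ± 0.15, SE; adjusted p = 0.0139). Multicopy small RNAs share reads, so the single loci are uncertain.

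Gene length went with the direction. The protein-coding genes tested were put into 5 equal groups by exonic length in the annotation. In the shortest group (up to 2490 bases) 169 genes rose and 31 fell, with a median log2 difference of 0.15, and in the longest (7661 bases or more) 18 rose and 223 fell, with a median of −0.20. On rescaled TPM the medians of the shortest group were −0.07 in mouse 6886 and −0.03 in mouse 6888, so their sign turned with the scale, and those of the longest were −0.32 and −0.42. By GC content the medians ran from 0.04 in the lowest group to −0.17 in the highest. By level, the highest group had a median of −0.28 and the lowest 0.25. The part of length, fragmentation, RNA quality or tissue content was not tested, and the labels state that fragmentation was set by RNA quality without giving it per library.

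**Figure D5:**
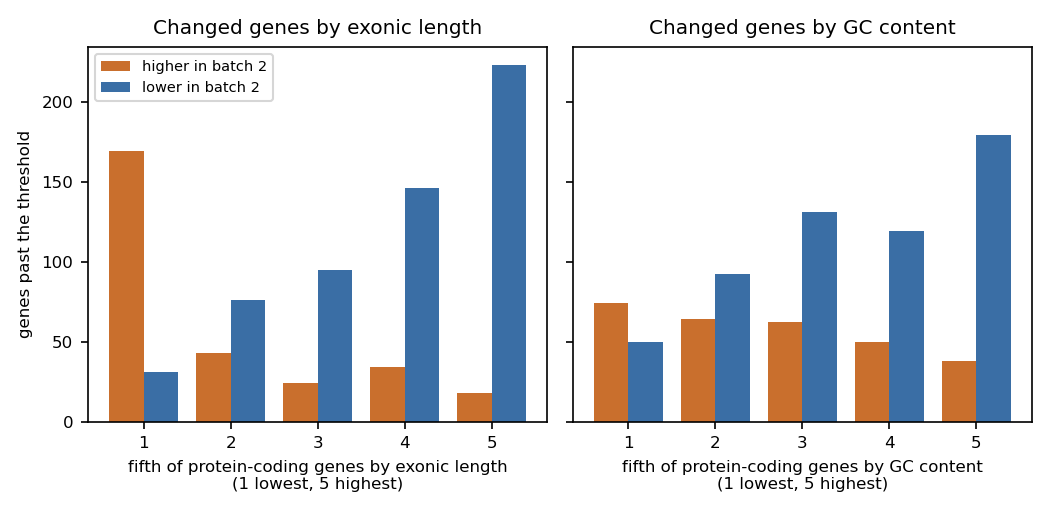
Number of protein-coding genes past the threshold in each of 5 equal groups by exonic length (left) and GC content (right), higher (orange) and lower (blue) in batch 2. The shortest group holds 169 higher and 31 lower genes and the longest 18 and 223.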

How the data were processed

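Total RNA from 20 mg of lung was depleted of ribosomal RNA, made into libraries from 100 ng and sequenced as single 75 bp reads, per the labels' protocols. The submitters' processing notes name Salmon (no version), DESeq2 1.18.1 and mm10. The authors deposited estimated counts (expected counts) and TPM for 13 libraries, in 1 table each. In these tables counts equal TPM scaled by a fixed length per gene and a factor per library (largest deviation 1.42e-14 on the log2 scale, 10070 genes), so counts carry the authors' length scaling; they were rounded before fitting. Of 46679 gene IDs, 46269 were named from GENCODE M21 (GRCm38), and 21581 are protein-coding. Promoter sequences are from RefSeq on GRCm38.p6.

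TPM were rescaled to protein-coding genes, repeats averaged per mouse, and SDs taken of log2(value + 1). The repeat preparation was tested with edgeR 4.0.16 (R 4.3.3; quasi-likelihood, TMM, filterByExpr), with limma 3.58.1 and DESeq2 1.42.0 as alternatives. The numbers pair libraries of the same animal; their residuals correlated at 0.04 over 17858 genes. Nothing says that the libraries of a mouse are separate extracts, and the main fit treats them as independent. Its p-values rest on the spread between libraries of different mice within a batch. Mouse and technical spread cannot be told apart there. On simulated data of this design (17858 genes) edgeR recovered 37% of changes set at a log2 size of 1, 78% at 2, and called 5 of the 17658 genes left as they were. The simulated counts were drawn independently for each library, with a spread set by level alone and no mouse effect. These rates need not hold for the real libraries.

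Named genes are the 25 most abundant; the 25 most and 15 least variable, and the 15 most variable in batch 2 alone; for the preparation, the 15 largest changes each way among called protein-coding genes that have an official name, a log2 CPM of 3 or more and repeat libraries that do not overlap between batches (mice 6887 and 6893 set aside), and 10 other RNAs by level; up to 4 members of each described list by level and any at 0; and the reference genes. Other genes named (Rhod, Stn1, Acp2, Narfl, Cd4, Csrp3, Tcap, Cox6a2, Cox7a1, Scgb3a1, Gm26917, Phf24, Zfp462, Gtf3c2 and list members below the first 4) were picked with their values in view. The 47 gene lists (704 of 709 genes found) and the members were chosen with earlier results of these data known.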

Additional observations from a re-analysis of the deposited data

Results flagged for a closer look

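Among 97 values compared over the 4 mice (50 abundant or variable genes and 47 list sums), 7 had 1 mouse far from the other 3 by Dixon's criterion, and chance alone flags about 1 in 20 groups. That rate does not apply to the 4 genes among them, which come from the 25 genes ranked as most variable over these same mice. In mouse 6886 the mean level of Myl4 was 93.2 (6.28 to 8.87 in the others), the mean of 7.15 in batch 1 and 179 in batch 2. Its sum of monocyte and interstitial macrophage genes was 1256 (928 to 977), from 1462 in batch 1 and 1051 in batch 2, and its sum of MHC class II genes was 1997 (1458 to 1528), from 2316 and 1678. In mouse 6887 Aqp11, a water channel, stood at 28.5 (3.41 to 4.70), Art3, an ADP-ribosyltransferase relative, at 15.0 (91.4 to 99.3), and the neutrophil sum at 437 (182 to 202). In mouse 6893 Zswim9 stood at 6.88 (45.9 to 49.4), but the 2 libraries of mouse 6888 behind its mean held 5.45 and 86.4. Art3 in mouse 6888 likewise stood at 168 in batch 1 and at 14.7 in batch 2, the latter close to mouse 6887.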

How the results depend on the processing

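The count of 1133 genes changed by preparation was 694 with the replicate block, 737 in the 4 repeat libraries alone, 564 with all 10 lung libraries, 604 in protein-coding genes alone, 3196 without a filter and 1963 with DESeq2 (743 higher, 1220 lower; 3809 genes without an adjusted p). It was 1 to 610 when a library was left out. The cause of these differences was not tested. DESeq2 size factors in edgeR (1208), voom (1029) and limma on rescaled TPM (1119) stayed within 1.5 times. None of the 40 named genes of that comparison reversed; 26 of 340 values missed the threshold in settings that kept all libraries, and 163 of 240 when one was left out. The shift of ribosomal, mitochondrial, macrophage, collagen, elastic fibre, endothelial, fibroblast, smooth muscle and type 1 lists kept its sign in every setting; relative to the median of all genes the ribosomal list ran from 0.86 to 1.09 and the collagens from −1.43 to −1.09. Of the 25 most abundant genes 22 to 25 remained, except 15 by CPM, which do not divide by length. Of the 25 most variable, 14 remained with batch 1 libraries of the repeated mice, 11 with TPM not rescaled, 15 by coefficient of variation, 10 with TMM-scaled CPM, 6 with official names and 50 counts (added after the data were seen) and 6 with that and batch 2 alone; leaving out a mouse kept 14 to 21. Of the 15 least variable, 0 remained with batch 2 alone, 1 with batch 1 libraries, 0 with TPM not rescaled, 0 with TMM-scaled CPM and 0 with batch 2 and official names; leaving out a mouse kept 2 to 6. Noncoding lists have no value in the 2 settings that hold protein-coding genes alone. With 2 repeated mice, small preparation differences were not detectable.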
